A study of Mus musculus with 54 samples.

Results

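Solute carriers are membrane proteins that move amino acids, sugars, monocarboxylates, nucleosides, vitamins, metals and inorganic ions across the plasma membrane and the membranes of organelles, as exchangers, cotransporters or uniporters. In the liver, hepatocytes take up amino acids, bile acids, organic cations and nucleosides from portal blood through them, and release glucose, lactate and ketone bodies through them. The genes described here were the entries of the liver expression table whose symbol has the form of Slc, a family number, the letter a and a member number, and whose mean value over all mice was at least 1. The mitochondrial carriers (Slc25a) were left out, as were 5 carriers of carnitine, fatty acids and bile acids (Slc22a5, Slc27a2, Slc27a5, Slc10a1 and Slc10a2). Of 241 symbols of this form, 41 were Slc25a genes, 195 remained after the 5 named genes were also removed, and 135 of these reached the mean of 1, among 11431 entries of the table that did so. The mean value chose the members, so that the levels below are a description. The members just above it were Slc39a6 (1.01), Slc7a7 (1.09), Slc16a9 (1.10) and Slc5a3 (1.10), and the nearest below it were Slc38a1 (0.969), Slc36a4 (0.900), Slc6a8 (0.840) and Slc26a10 (0.793). The mean was taken over all doses together. In 6 members (Slc16a9, Slc39a6, Slc3a1, Slc5a3, Slc6a16 and Slc7a7) it reached 1 although at least 1 group mean was under 1.

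The samples were medial liver lobes of single-housed male C57BL/6J mice (wild type) that ate a high-fat diet from 8 weeks of age and received DINP (di-isononyl phthalate, a plasticizer) by mouth in gelatin pellets every morning for 20 weeks. There were 14 control mice on placebo pellets (0 mg/kg bw/d). Doses of 1.5 and 15 mg/kg bw/d were given to 13 mice each, and the high dose of 150 mg/kg bw/d to 14 mice. All groups, the control included, were on the high-fat diet, so that an effect of the diet cannot be seen here. Dose was the only treatment that differed by design. The study reports less weight gain in the lowest and highest dose groups, and less macrosteatosis in the highest. Whether these had a part in the gene differences was not tested. QuantSeq libraries, which read the 3′ end of polyadenylated RNA, gave 1 value per gene and mouse, here called normalised TPM (whole-number TPM, a level per transcript length, that the authors scaled between libraries by size factors).

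Genes were compared with limma on log2(normalised TPM + 1) over all 11431 entries. All adjusted p-values below are from this test with the Benjamini-Hochberg method. A gene was a DEG when its adjusted p was under 0.05 and its log2 fold change (log2FC) was above 0.5 or below -0.5. A log2FC is a difference on the log2(value + 1) scale, which understates changes of low values. In whole liver, fewer cells of a type and less RNA per cell cannot be told apart. The hepatocyte marker list (8 of 8 genes tested, none at 0 in every library) summed to 23041 to 42257 in control livers and to 30662 to 41136 at 150 mg/kg bw/d.

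Some libraries stood apart, and where leaving them out changed the call of a named gene, its value without them is given. In 4 libraries (control mice 8 and 9, mouse 9 at 1.5 mg/kg bw/d and mouse 7 at 15 mg/kg bw/d), 13553 to 14221 gene symbols were above 0, against 12095 to 13227 in the other 50. The summed Kupffer cell and macrophage markers were 313 and 326 in the 2 control mice (80.6 to 139 in the other 12), 272 in mouse 7 at 15 mg/kg bw/d (76.5 to 153 in the other 12) and 154 in mouse 9 at 1.5 mg/kg bw/d, which lay within the 71.8 to 191 of its group. The summed cholangiocyte markers were 245 and 132 in the 2 control mice (50.4 to 72.0 in the other 12). They were 327 in mouse 7 at 15 mg/kg bw/d (54.1 to 119 in the other 12). In mouse 9 at 1.5 mg/kg bw/d they were 132, closer to the 49.0 to 118 of the other 12. In a separate pattern, mice 4 to 9 at 15 mg/kg bw/d, whose library numbers are consecutive, had scores of -45.5 to -13.5 on the first principal component of their group (30.8% of its variance), against 12.6 to 33.0 in the other 7 mice at that dose. No label names a batch for them. Of all tested genes, 9.75% had no overlap between these 6 mice and the other 7, as did 8 of the 135 solute carriers (5.93%). These 6 mice were noticed in the data and are no group of the study, so that they were not tested against the others. The plot of libraries that stood apart gives both patterns.

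**Figure D1:**
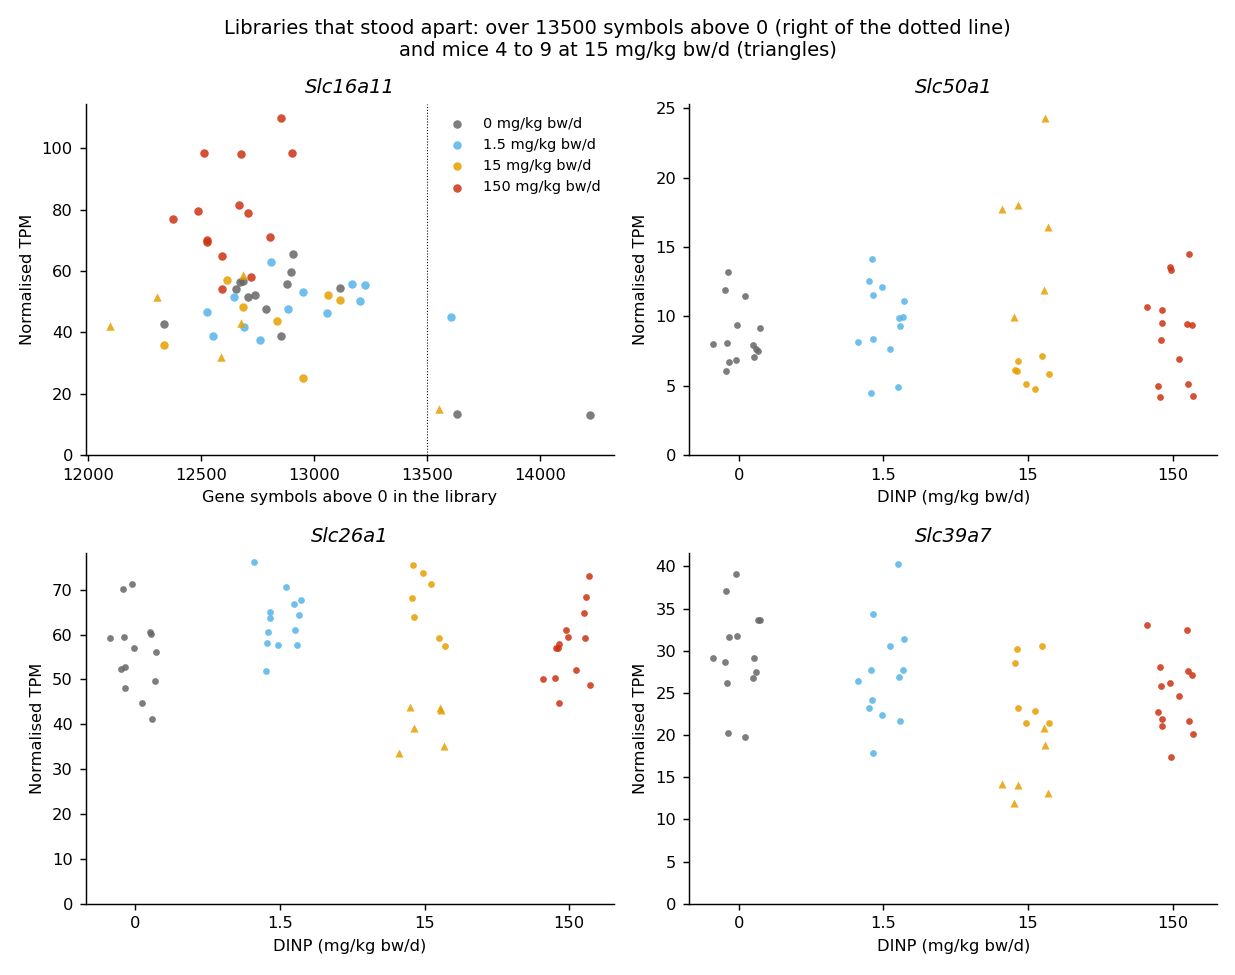
Normalised TPM of Slc16a11 against the number of gene symbols above 0 in each of the 54 libraries (points, coloured by dose; the dotted line separates the 4 libraries of at least 13553 symbols), and of Slc50a1, Slc26a1 and Slc39a7 in each mouse by dose, with mice 4 to 9 at 15 mg/kg bw/d as triangles. Slc16a11 was 13.0, 13.2 and 15.1 in 3 of the 4 libraries right of the line, and the 6 triangles of Slc26a1 (33.7 to 43.8) lay below the other 7 mice at 15 mg/kg bw/d (57.4 to 75.5).

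In control livers the values of the 135 genes added up to 2350 normalised TPM, and the 10 highest genes held 46.8% of that sum. The 4 genes with a control mean above 100 included Slc38a4, a sodium-coupled carrier of neutral amino acids (244 ± 27.4, SD, n = 14), Slc38a3, which carries glutamine (186 ± 29.0), and Slc29a1, the equilibrative nucleoside transporter ENT1 (104 ± 23.3). A further 47 genes lay between 10 and 100, 21 between 5 and 10, and 63 under 5, with a median of 6.19. All 54 libraries had a value above 0 for 113 of the genes, and 22 were at 0 in at least 1 library. Among the 72 genes with a control mean of at least 5, the coefficient of variation among control mice had a median of 18.7% and ran from 7.53% (Slc39a9, a zinc carrier) to 46.2% (Slc16a12, a carrier of creatine). The values are TPM, which divide by transcript length although a 3′ library reads only 1 end, so that the order of genes rests on that division.

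By substrate, the 25 amino acid carriers held 31.7% of the summed value, followed by 10 carriers of organic cations and anions with 14.1% and 27 carriers of metals and heme with 12.1%. The 9 sugar carriers held 7.58%, led by the hepatocyte glucose transporter GLUT2 (Slc2a2, 90.9 ± 14.9). The 8 monocarboxylate carriers held 6.39%. Leading genes of other classes were Slc66a2 (80.5 ± 8.47, no settled substrate), the sulfate carrier Slc26a1 (55.9 ± 8.65), the heme carrier Slc48a1 (34.3 ± 5.92), the sodium bicarbonate cotransporter Slc4a4 (31.8 ± 3.89), Slc17a3 of the organic anion carriers (28.8 ± 6.04) and the ascorbate transporter Slc23a1 (23.7 ± 5.29). Lower leaders were the acetyl-CoA carrier Slc33a1 (15.8 ± 2.97), the peptide and histidine carrier Slc15a4 (12.4 ± 2.12), the CMP-sialic acid carrier Slc35a1 (11.5 ± 2.00), the choline carrier Slc44a1 (10.4 ± 2.04), the fatty acid carrier Slc27a4 (6.46 ± 1.04) and the dicarboxylate carrier Slc13a3 (2.88 ± 0.984). Those with no class neighbour among the members were Slc33a1, Slc27a4 and Slc13a3.

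**Figure D2:**
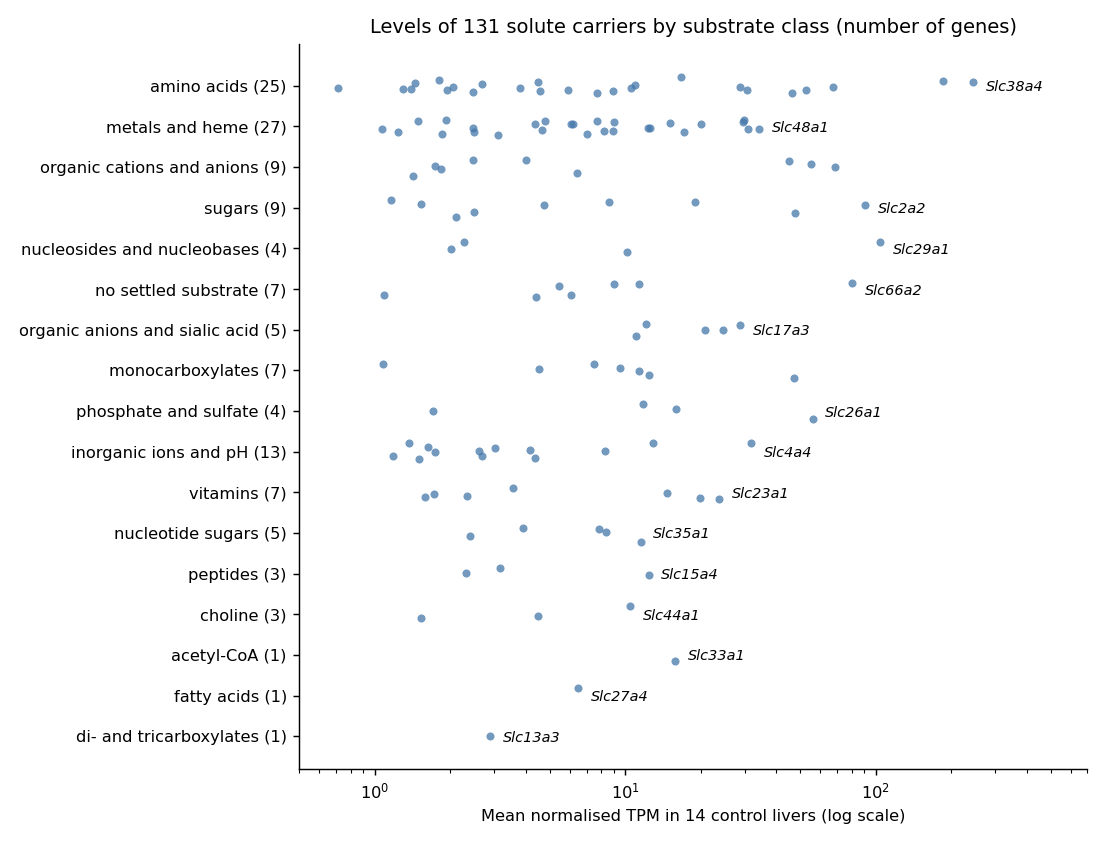
Mean control value (normalised TPM, log axis, n = 14 mice) of 131 of the 135 solute carriers, 1 point a gene, in rows by substrate class with the number of genes drawn. The labelled genes lay between 2.88 (Slc13a3) and 244 (Slc38a4).

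At 150 mg/kg bw/d, 3 solute carriers were DEGs against control: Slc16a11 and Slc23a2 were higher and Slc13a3 was lower. That was 2.22% of the members, against 0.840% of all tested genes (0.647% higher and 0.192% lower). With an adjusted p under 0.05 alone the count was 4 (2.96%, against 2.17% of all tested genes), with Slc12a7 added. The median log2FC of the 135 genes was 0.01, and that of all tested genes was -0.01. The 4 genes belong to different classes: monocarboxylates, vitamins, dicarboxylates and inorganic ions. Among the marker lists of other cell types, none of 10 tested Kupffer cell and macrophage genes, 8 stellate cell genes or 4 cholangiocyte genes had an adjusted p under 0.05 at this dose, while Lgals4 of the kidney and gut epithelium list was higher (log2FC 1.05).

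Slc16a11 encodes MCT11, a carrier of pyruvate, and lies at chr11:70212752-70216417 on the plus strand (GRCm38, as are all positions here). Its values ran from 13.0 to 65.4 in control mice (median 53.2), from 37.3 to 62.9 at 1.5 mg/kg bw/d (median 47.7), from 15.1 to 58.7 at 15 mg/kg bw/d (median 43.8) and from 54.1 to 109.7 at 150 mg/kg bw/d (median 77.8). All 14 mice of the high-dose group were above the control median, and the ranges of the 2 groups overlapped between 54.1 and 65.4. The log2FC was 0.83 (SE 0.18, adjusted p = 0.0042). Control mice 8 and 9, which stood apart, had the lowest control values (13.0 and 13.2), while the other 12 control mice ran from 38.7 to 65.4. Without the 4 libraries that stood apart in their number of symbols, the log2FC was 0.56 (adjusted p = 0.00108). Whether the RNA of other cell types in those libraries had a part in their low values was not tested.

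Slc23a2 encodes SVCT2, a sodium-dependent ascorbate transporter, and lies at chr2:132052496-132145108 on the minus strand. Its values were low, from 0.883 to 2.88 in control mice (median 1.97), from 0.931 to 3.15 at 1.5 mg/kg bw/d (median 2.02), from 0.973 to 4.76 at 15 mg/kg bw/d (median 1.99) and from 1.94 to 8.54 at 150 mg/kg bw/d (median 3.16). At the high dose 12 of 14 mice were above the control median, and mice 7, 8 and 11 were at 8.54, 8.28 and 8.43, with the other 11 between 1.94 and 5.23. The log2FC was 0.83 (SE 0.18, adjusted p = 0.00449), and it was 0.78 (adjusted p = 0.015) without the 4 libraries. Slc23a1, the other ascorbate transporter of the set, had a log2FC of 0.04 at the same dose (adjusted p = 0.935) and changed sign with the scaling.

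Slc13a3 encodes NaDC3, a sodium-coupled carrier of dicarboxylates such as succinate, and lies at chr2:165405028-165473230 on the minus strand. Control values ran from 1.87 to 5.02 (median 2.81), those at 1.5 mg/kg bw/d from 1.02 to 4.48 (median 3.02), those at 15 mg/kg bw/d from 1.11 to 4.09 (median 2.04) and those at 150 mg/kg bw/d from 0.970 to 3.06 (median 1.52). At the high dose 13 of 14 mice lay under the control median, and the ranges overlapped. The log2FC was -0.57 (SE 0.15, adjusted p = 0.0265). The adjusted p was 0.0513 without control mouse 13, and 0.126 in a Wilcoxon rank-sum test with the same adjustment. One step of the table is worth 0.764 to 1.11 in a library, so that the control and high-dose medians of Slc13a3 and Slc23a2 lay little more than a step apart.

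**Figure D3:**
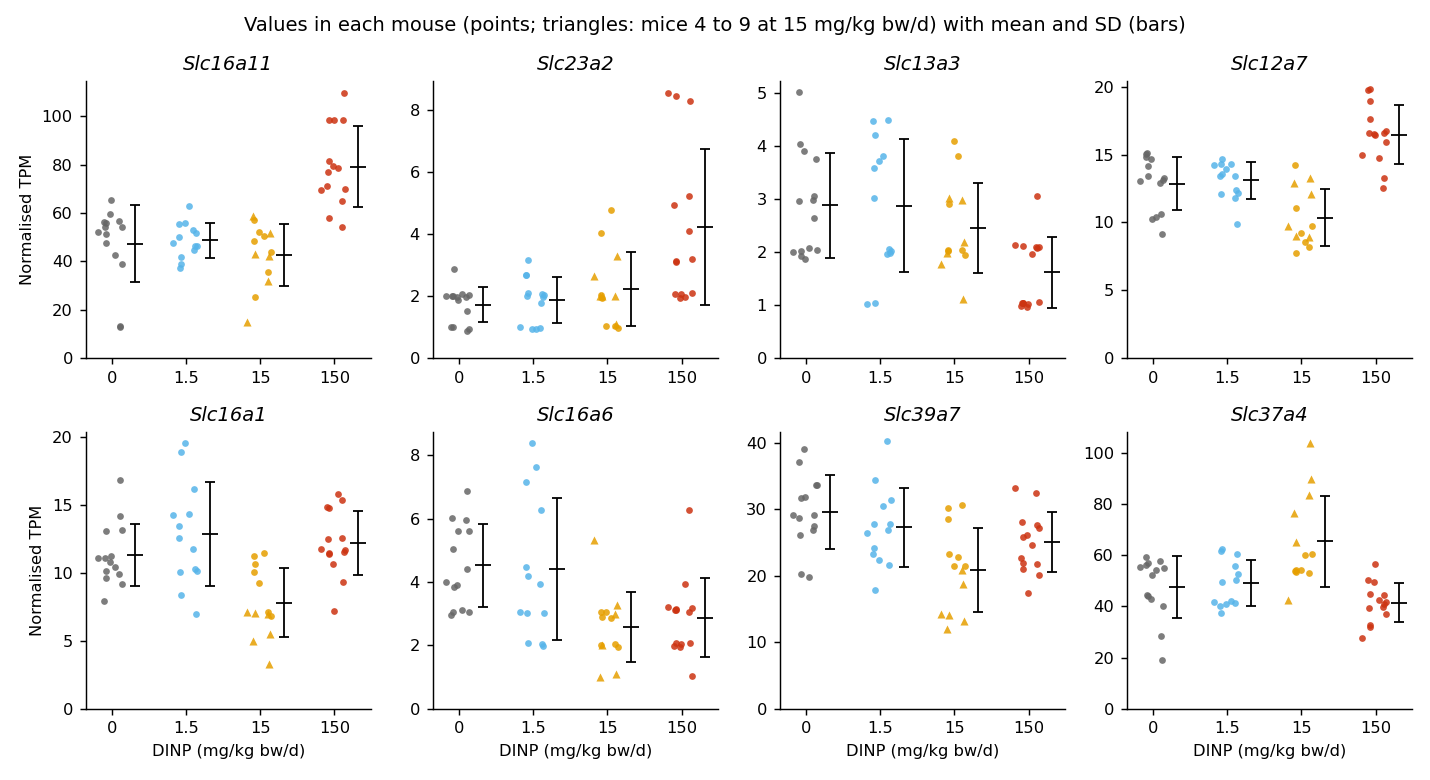
Normalised TPM of 8 solute carriers in each mouse (points) by dose, with the mean and SD of each group (bar and whiskers). Triangles are mice 4 to 9 at 15 mg/kg bw/d. The high-dose mice sit highest for Slc16a11 (54.1 to 109.7) and Slc12a7 (12.5 to 19.8), and the triangles of Slc39a7 (11.9 to 20.9) lie below the other mice at 15 mg/kg bw/d.

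Slc12a7 encodes KCC4, a potassium chloride cotransporter, and lies at chr13:73733094-73816754 on the plus strand. Its values ran from 9.17 to 15.1 in control mice (median 13.2), from 9.92 to 14.7 at 1.5 mg/kg bw/d (median 13.4), from 7.73 to 14.2 at 15 mg/kg bw/d (median 9.73) and from 12.5 to 19.8 at 150 mg/kg bw/d (median 16.5). The ranges overlapped, with 13 of 14 high-dose mice above the control median. It was below control at 15 mg/kg bw/d (log2FC -0.29, SE 0.08, adjusted p = 0.00974) and above it at 150 mg/kg bw/d (log2FC 0.34, SE 0.08, adjusted p = 0.0116). Both changes were smaller than the log2FC limit for a DEG. Without the 4 libraries the log2FC at 150 mg/kg bw/d was 0.28 (adjusted p = 0.0502), and without mice 4 to 9 the value at 15 mg/kg bw/d was -0.37 (adjusted p = 0.0134).

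Of the other carriers that the study names for this dose, 3 came near the threshold, and Slc23a1, given above, did not. By its own test (DESeq2), the study lists Slc6a16 and Slc23a1 as higher and Slc20a1 and Slc16a6 as lower. None of them passed the limits here with all mice. The log2FC of Slc6a16, an orphan of the neurotransmitter carrier family, was 0.66 (adjusted p = 0.0696), and the gene was at 0 in 10 libraries. Its control mean was 0.711, under the limit of 1, so that it entered the set through the dosed groups. The phosphate carrier Slc20a1 had a value of -0.52 (adjusted p = 0.097). Slc16a6, which encodes MCT7, had a value of -0.54 (adjusted p = 0.0781). It was a DEG (adjusted p = 0.0449) when mice 4 to 9 of the 15 mg/kg bw/d group were left out of the shared fit. It was not without the 4 libraries (-0.49, adjusted p = 0.131) or without both sets (-0.49, adjusted p = 0.0945), and the Wilcoxon test gave an adjusted p of 0.117. Since these genes had been chosen on the same mice, they add no independent evidence.

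RefSeq promoter windows are shown for the 4 genes with an adjusted p under 0.05 at 150 mg/kg bw/d. They are also shown for Slc16a1, which is described below for 15 mg/kg bw/d. Slc16a6 and Slc39a7, likewise described below for that dose, are not displayed, so that the windows are a selection. Each window (GRCm38.p6) holds 250 bases before and 50 after the transcript start, on the gene's own strand, 5′ to 3′. Capitals mark the hexamers AGGTCA, the letters of a nuclear receptor site, and CACGTG, the E-box letters, searched on both strands.
Slc16a11, chr11:70213660-70213959, plus strand: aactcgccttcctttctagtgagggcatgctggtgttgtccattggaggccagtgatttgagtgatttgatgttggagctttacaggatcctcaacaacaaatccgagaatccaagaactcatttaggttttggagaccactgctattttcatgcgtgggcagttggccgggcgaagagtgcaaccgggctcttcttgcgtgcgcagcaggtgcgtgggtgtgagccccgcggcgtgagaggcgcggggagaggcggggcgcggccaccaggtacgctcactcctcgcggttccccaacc
Slc23a2, chr2:132145059-132145358, minus strand: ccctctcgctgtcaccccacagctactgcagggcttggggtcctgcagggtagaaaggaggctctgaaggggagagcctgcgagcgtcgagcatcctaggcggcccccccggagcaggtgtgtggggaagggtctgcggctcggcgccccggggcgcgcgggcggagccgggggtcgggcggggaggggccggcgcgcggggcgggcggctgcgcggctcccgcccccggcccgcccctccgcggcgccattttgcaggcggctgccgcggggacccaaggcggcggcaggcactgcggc
Slc13a3, chr2:165473148-165473447, minus strand: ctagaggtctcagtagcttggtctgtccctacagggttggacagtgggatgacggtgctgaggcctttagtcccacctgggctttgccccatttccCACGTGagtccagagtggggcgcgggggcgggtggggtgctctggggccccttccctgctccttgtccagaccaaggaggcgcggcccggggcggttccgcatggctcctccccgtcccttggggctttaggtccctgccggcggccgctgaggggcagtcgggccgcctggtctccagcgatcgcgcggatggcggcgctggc
Slc12a7, chr13:73763410-73763709, plus strand: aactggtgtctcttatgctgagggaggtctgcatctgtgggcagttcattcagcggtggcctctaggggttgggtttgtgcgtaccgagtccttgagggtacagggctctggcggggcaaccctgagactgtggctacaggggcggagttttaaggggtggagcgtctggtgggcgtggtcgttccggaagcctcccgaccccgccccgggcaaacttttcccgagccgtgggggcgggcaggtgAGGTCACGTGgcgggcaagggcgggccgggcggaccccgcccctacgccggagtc
Slc16a1, chr3:104638414-104638713, plus strand: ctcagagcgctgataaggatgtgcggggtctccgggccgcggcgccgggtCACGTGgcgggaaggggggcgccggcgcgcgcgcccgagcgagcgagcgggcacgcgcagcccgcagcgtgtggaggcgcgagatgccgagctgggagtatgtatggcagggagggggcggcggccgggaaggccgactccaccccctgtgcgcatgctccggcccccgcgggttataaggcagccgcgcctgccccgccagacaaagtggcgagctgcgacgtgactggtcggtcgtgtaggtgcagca
Of the 135 solute carriers, 101 had such a window, and a gene was counted when any of its windows held the letters. AGGTCA occurred in 25 of these genes (24.8%), against 18.1% of the 27025 genes with a window, and CACGTG in 22 (21.8%), against 8.09%. The 27025 genes were not filtered by level as the solute carriers were, so that the shares are of unlike sets. AGGTCANAGGTCA, the spaced repeat of the first hexamer, occurred in none of the 101 and in 0.0481% of all genes. One window a gene is shown where RefSeq gives 2 (Slc12a7 and Slc23a2). The windows of Slc16a11 and Slc23a2 held neither hexamer. In Slc12a7 the hexamers overlapped in AGGTCACGTG, and Slc13a3 and Slc16a1 held CACGTG only. These matches describe letters in windows of 300 bases and say nothing of binding. The windows of Slc16a11 and Slc12a7 lie inside the gene spans of the GENCODE annotation given above, which begin further upstream.

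At 15 mg/kg bw/d, 3 solute carriers were DEGs against control, all lower: Slc16a6, Slc16a1 and Slc39a7. That was 2.22% of the members, against 3.72% of all tested genes (1.85% higher and 1.86% lower). With an adjusted p under 0.05 alone, 18 members differed (13.3%, against 14.2% of all tested genes), of which 5 were higher (3.70%, against 7.57% of all tested genes) and 13 lower (9.63%, against 6.61%), and the median log2FC was -0.04. By substrate, 3 of 8 monocarboxylate carriers were lower, among them Slc16a6 and Slc16a1. Among the 27 metal and heme carriers 4 were lower and 2 higher, among the 15 ion carriers 2 were lower and 1 higher, and among the 25 amino acid carriers 2 were lower. Both directions together, the share was close to that of all genes. The counts changed with mice 4 to 9, and without them 1 member was a DEG (all genes, 1.36%) and 6 had an adjusted p under 0.05 (all genes, 5.25%). With the 4 libraries left out instead, 1 was a DEG (all genes, 2.68%) and 11 had an adjusted p under 0.05 (all genes, 10.8%), 1 higher and 10 lower.

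Slc16a6 (chr11:109450855-109473598, minus strand) encodes MCT7, a monocarboxylate transporter linked to the release of ketone bodies from the liver, and its exons share bases with Gm25540. Its values ran from 2.97 to 6.88 in control mice (median 4.22), from 1.98 to 8.38 at 1.5 mg/kg bw/d (median 3.92), from 0.995 to 5.32 at 15 mg/kg bw/d (median 2.85) and from 1.04 to 6.27 at 150 mg/kg bw/d (median 3.08). At 15 mg/kg bw/d 12 of 13 mice had a value under the control median, and the log2FC was -0.65 (SE 0.17, adjusted p = 0.007). Without mice 4 to 9 it was -0.62 (adjusted p = 0.0543), about as large in fewer mice, and without the 4 libraries with more symbols it was -0.68 (adjusted p = 0.00786).

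Slc16a1 (chr3:104638668-104658462, plus strand) encodes MCT1, which carries lactate, pyruvate and ketone bodies. Its values ran from 7.91 to 16.8 in control mice (median 10.9), from 6.94 to 19.5 at 1.5 mg/kg bw/d (median 12.5), from 3.32 to 11.4 at 15 mg/kg bw/d (median 7.09) and from 7.19 to 15.8 at 150 mg/kg bw/d (median 11.7). At 15 mg/kg bw/d 11 of 13 mice were below the control median (log2FC -0.52, SE 0.13, adjusted p = 0.00501). Mice 4 to 9 ran from 3.32 to 7.09 and the other 7 from 6.81 to 11.4. Without mice 4 to 9 the log2FC was -0.23 (adjusted p = 0.38). Control mice 8 and 9 had the highest control values (16.8 and 14.1, the other 12 from 7.91 to 13.1). Without the 4 libraries the log2FC was -0.45 (adjusted p = 0.0295), under the limit for a DEG, and the Wilcoxon test gave an adjusted p of 0.0565.

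Slc39a7 (chr17:34028269-34031682, minus strand) encodes ZIP7, which releases zinc from the endoplasmic reticulum. Its exons share bases with Gm20427. Control values ran from 19.7 to 39.1 (median 29.1), those at 1.5 mg/kg bw/d from 17.8 to 40.2 (median 26.9), those at 15 mg/kg bw/d from 11.9 to 30.6 (median 21.4) and those at 150 mg/kg bw/d from 17.5 to 33.1 (median 25.2). The middle dose gave a log2FC of -0.52 (SE 0.12, adjusted p = 0.00226). Mice 4 to 9 ran from 11.9 to 20.9 and the other 7 from 21.4 to 30.6 without overlap, and without mice 4 to 9 the log2FC was -0.20 (adjusted p = 0.37). Without the 4 libraries it was -0.49 (adjusted p = 0.00981), just under the limit for a DEG, and the Wilcoxon test gave an adjusted p of 0.0565.

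The other changes at 15 mg/kg bw/d were smaller than 0.5. Slc37a4, the glucose-6-phosphate translocase of the endoplasmic reticulum (chr9:44396852-44402968, plus strand), ran from 19.1 to 59.3 in control mice (median 53.2) and from 42.5 to 103.9 at 15 mg/kg bw/d (median 59.9). Its log2FC was 0.46 (adjusted p = 0.0113), and it was 0.27 (adjusted p = 0.283) without mice 4 to 9. Slc39a11, a zinc carrier (ZIP11), ran from 9.12 to 16.8 in control mice (median 12.1) and from 7.67 to 10.9 at 15 mg/kg bw/d (median 8.86). All 13 mice lay under the control median (log2FC -0.40, adjusted p = 0.000665). This gene kept its adjusted p under 0.05 without mice 4 to 9 (log2FC -0.39, adjusted p = 0.017) and under every other alternative that gives a p-value. Slc3a2, the heavy chain that amino acid exchangers need to reach the cell surface, was lower with and without mice 4 to 9 (log2FC -0.32 and -0.37, adjusted p = 0.0157 and 0.0108), but not in the Wilcoxon test (adjusted p = 0.0983), and the call was also lost with the 2 groups fitted alone.

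The heme carrier Slc48a1 (HRG1) ran from 25.3 to 45.0 in control mice (median 33.6) and from 19.3 to 34.8 at 15 mg/kg bw/d (median 25.7). Its log2FC was -0.37 (adjusted p = 0.0079), and it was -0.31 (adjusted p = 0.118) without mice 4 to 9. Slc46a3, a lysosomal carrier, had a log2FC of 0.45 (adjusted p = 0.031). Lower genes named by size also included Slc15a4 (-0.37, adjusted p = 0.0341), Slc12a9 (-0.36, adjusted p = 0.0318) and the lysosomal amino acid carrier Slc36a1 (-0.34, adjusted p = 0.0122), and the higher genes included the zinc carrier Slc30a5 (0.34, adjusted p = 0.0357). None of these 5 genes had an adjusted p under 0.05 without mice 4 to 9, where Slc46a3 was still at 0.39 (adjusted p = 0.209) and the other 4 lay between -0.19 and 0.14. Slc36a1 kept its call without the 4 libraries (-0.30, adjusted p = 0.0433). The others lost it at values not much smaller: Slc46a3 was at 0.36 (adjusted p = 0.0857), Slc15a4 at -0.33 (adjusted p = 0.0977), Slc12a9 at -0.35 (adjusted p = 0.069) and Slc30a5 at 0.29 (adjusted p = 0.114). In the Wilcoxon test Slc36a1 also kept its call (adjusted p = 0.0316), while Slc37a4 (adjusted p = 0.153), Slc48a1 (adjusted p = 0.0565) and these 4 genes (adjusted p = 0.0843 to 0.124) did not.

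Without mice 4 to 9, the single DEG at 15 mg/kg bw/d was Slc38a2, the amino acid carrier SNAT2, at 0.63 (adjusted p = 0.0145). It is named after its value was seen. With all 13 mice its values ran from 19.1 to 62.3 (median 35.6), against 22.4 to 44.6 in control mice (median 28.9), and its log2FC was 0.32 (adjusted p = 0.17). The 6 mice also differed from the other 7, with no overlap, in genes that did not reach the threshold against control. The sulfate carrier Slc26a1 was 33.7 to 43.8 in them and 57.4 to 75.5 in the others, Slc38a10 was 2.01 to 3.54 against 4.86 to 10.2, and Slc50a1 of the sugar carriers was 9.95 to 24.3 against 4.76 to 7.14. Further genes of this kind were Slc16a7 and Slc20a2, which were higher in the 6 mice, and Slc6a9, which was lower.

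Some marker sums moved with the same split. The 2 measured genes of the 8 in the kidney and gut epithelium list summed to 255 to 483 in mice 4 to 9 and to 141 to 224 in the other 7. Adipocyte markers, of which 2 of 6 were tested, summed to 1041 to 2274 against 2098 to 3755, with overlap. The untested ones had a mean under 1, so that this sum rests on the 2 tested genes and cannot show adipocyte content. The sums of hepatocyte markers also overlapped (29136 to 45519 against 33272 to 40312), as did those of Kupffer cell and macrophage markers (76.5 to 272 against 79.5 to 153). Against control at 15 mg/kg bw/d, Csf1r was lower (log2FC -0.60, adjusted p = 0.0114), 1 of 10 tested macrophage genes, and Ttr higher (0.42, adjusted p = 0.0231), 1 of 8 hepatocyte genes. Of all tested genes, 6.61% were lower and 7.57% higher at that dose with an adjusted p under 0.05. Against control, 4 of 16 tested clock genes were higher at 15 mg/kg bw/d (Dbp, Nr1d2, Per3 and Usp2, log2FC 0.42 to 1.37), and none differed at the other doses. The part of these differences in the solute carrier results was not tested.

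At 1.5 mg/kg bw/d no solute carrier had an adjusted p under 0.05 against control, and none was a DEG (all tested genes, 1.20% and 0.367%). At an unadjusted p under 0.05 there were 9 (6.67%, against 12.3% of all tested genes), and a Wilcoxon rank-sum test also gave 0 DEGs. The lowest adjusted p-value was that of Slc22a23, an orphan of the organic ion carriers. Slc22a23 ran from 7.07 to 10.6 in control mice and from 8.94 to 13.2 at 1.5 mg/kg bw/d, with 12 of 13 mice above the control median (log2FC 0.27, adjusted p = 0.0586). It fell under 0.05 when mice 4 to 9 of the 15 mg/kg bw/d group, which shares the estimate of the spread, were left out of the fit. It did not when the 4 libraries or both sets were left out. In those fits the member under 0.05 was Slc2a9 (log2FC -0.36 in both, adjusted p = 0.0358 and 0.023), named after its value was seen.

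**Figure D4:**
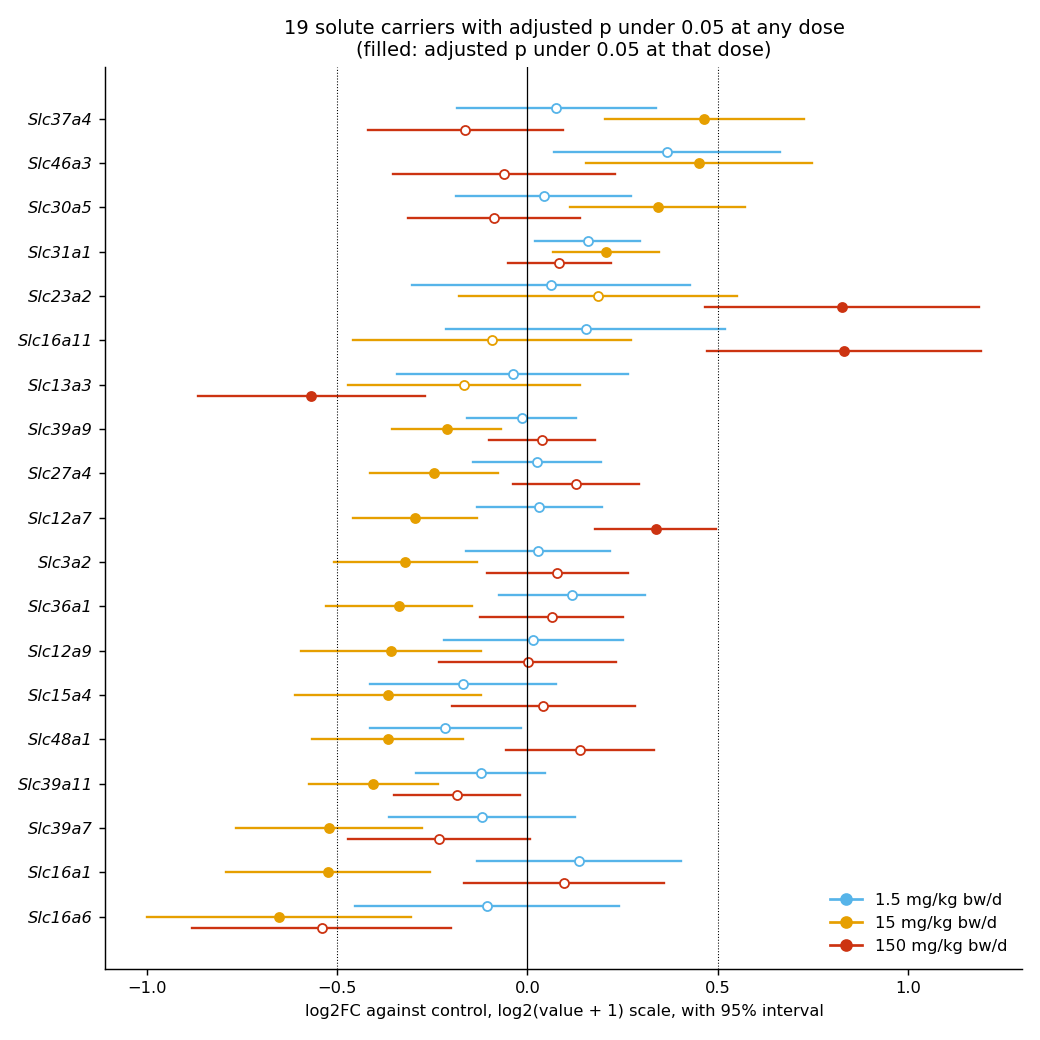
Log2FC against control with its 95% interval at each of the 3 doses for 19 of the 21 solute carriers with an adjusted p under 0.05 at any dose (filled points). The filled points at 150 mg/kg bw/d are Slc16a11, Slc23a2, Slc12a7 and Slc13a3, and none is filled at 1.5 mg/kg bw/d.

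The doses were also compared with each other directly. These contrasts share groups, and the values are given side by side. Between 15 and 150 mg/kg bw/d, 10 solute carriers were DEGs (7.41%, against 6.73% of all tested genes), of which 3 were higher and 7 lower at 15 mg/kg bw/d (3.29% and 3.44% of all tested genes). With an adjusted p under 0.05 alone there were 28 (20.7%, against 20.0%), 9 higher and 19 lower (all tested genes, 10.1% and 9.85%). The value of Slc16a11 was -0.92 (adjusted p = 0.00019), that of Slc12a7 was -0.63 (adjusted p = 1.24e-07) and that of Slc48a1 was -0.51 (adjusted p = 0.000163). For Slc12a7 and Slc48a1, 13 of 13 mice at 15 mg/kg bw/d were below the median of the high-dose group.

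The other DEGs of that contrast were lower Slc23a2 (-0.64, adjusted p = 0.0086), Slc16a1 (-0.62, adjusted p = 0.000595), Slc10a5 (-0.54, adjusted p = 0.0192), an orphan of the bile acid carrier family, and Slc22a15 (-0.50, adjusted p = 0.0174), a carrier of zwitterions, and higher Slc3a1 (0.69, adjusted p = 0.00276), Slc37a4 (0.63, adjusted p = 0.00037) and Slc46a3 (0.51, adjusted p = 0.0096). Slc3a1 encodes rBAT, the heavy chain of the cystine carrier, and ran from 1.00 to 4.43 at 15 mg/kg bw/d (median 1.95) and from 0 to 2.08 at 150 mg/kg bw/d (median 1.03). Among the smaller differences, the bicarbonate carrier Slc4a4 was lower at 15 mg/kg bw/d (-0.49, adjusted p = 0.000194), as was Slc27a4 (-0.37, adjusted p = 0.000927), while GLUT2 (Slc2a2) was higher (0.37, adjusted p = 0.00236). In Slc4a4 and Slc27a4 all 13 mice were below the median of the high-dose group.

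Without mice 4 to 9, 6 solute carriers were DEGs between 15 and 150 mg/kg bw/d (all genes, 2.79%). Slc16a11 (-0.83, adjusted p = 0.00708), Slc12a7 (-0.70, adjusted p = 2.42e-06) and Slc22a15 (-0.60, adjusted p = 0.0266) were DEGs either way. Slc37a4 and Slc48a1 kept an adjusted p under 0.05 at values of 0.44 and -0.45. Slc16a1 (-0.33, adjusted p = 0.161), Slc10a5 (-0.04, adjusted p = 0.925), Slc3a1 (0.44, adjusted p = 0.171), Slc46a3 (0.45, adjusted p = 0.118) and Slc23a2 (-0.67, adjusted p = 0.0565) did not, although the values of Slc46a3 and Slc23a2 were about as large as with all mice. With the 4 libraries left out, Slc10a5 (-0.47, adjusted p = 0.0491) and Slc22a15 (-0.48, adjusted p = 0.0287) were under the limit for a DEG, and in the Wilcoxon test Slc3a1 (adjusted p = 0.0992), Slc23a2 (adjusted p = 0.0725) and Slc10a5 (adjusted p = 0.18) lost their calls. Of the smaller differences, those of Slc4a4 (-0.34, adjusted p = 0.0414) and Slc2a2 (0.41, adjusted p = 0.0112) kept an adjusted p under 0.05 without mice 4 to 9 and that of Slc27a4 (-0.29, adjusted p = 0.0638) did not. The 3 genes that became DEGs without these mice were Slc39a4 (-0.89, adjusted p = 0.0225), Slc22a7 (0.70, adjusted p = 0.041) and Slc12a5 (-0.64, adjusted p = 0.0449), named after their values were seen.

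**Figure D5:**
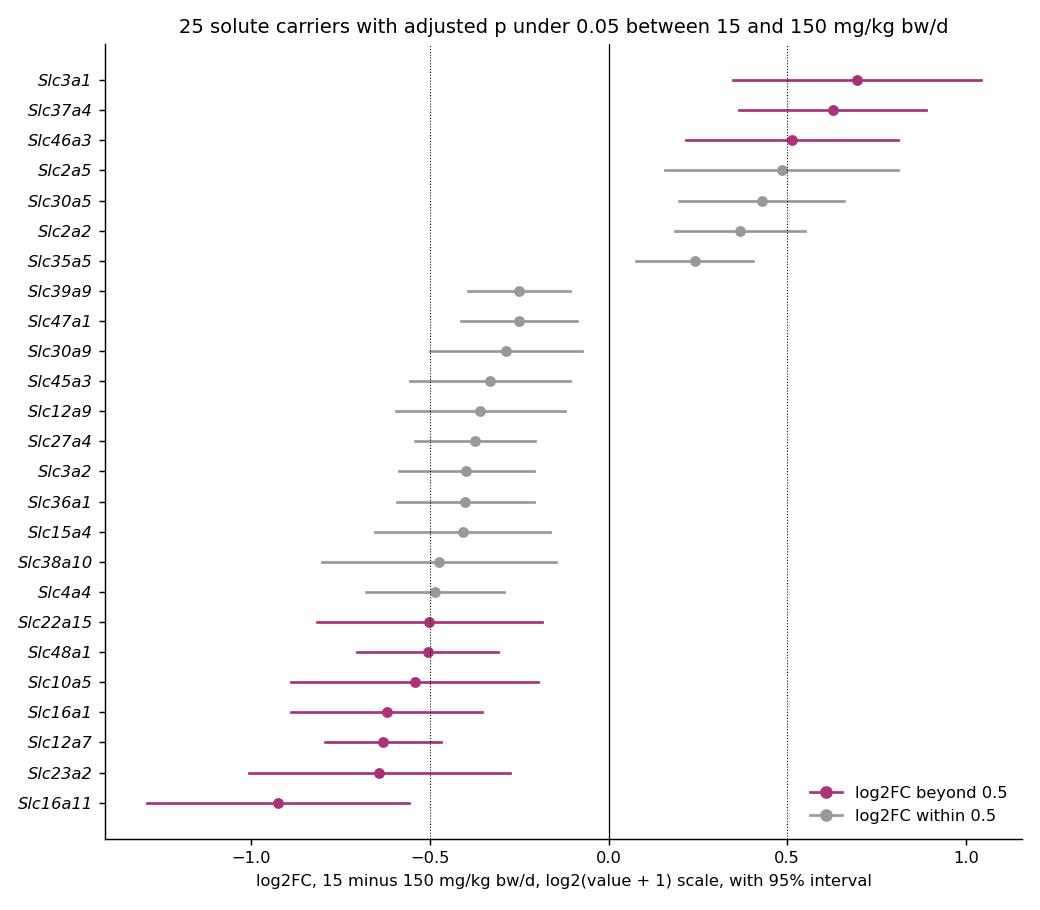
Log2FC of 15 mg/kg bw/d minus 150 mg/kg bw/d with its 95% interval for 25 of the 28 solute carriers with an adjusted p under 0.05 in that contrast. Values run from -0.92 (Slc16a11) to 0.69 (Slc3a1), with 18 genes drawn left of 0 and 7 right of it.

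Between 1.5 and 15 mg/kg bw/d, 5 solute carriers were DEGs (3.70%, against 7.15% of all tested genes, 3.40% higher and 3.74% lower): Slc39a2 (0.67, adjusted p = 0.00337), Slc16a1 (0.66, adjusted p = 0.000352), Slc10a5 (0.57, adjusted p = 0.016) and Slc16a6 (0.55, adjusted p = 0.0205) were higher and Slc3a1 (-0.65, adjusted p = 0.0058) was lower at 1.5 mg/kg bw/d. Slc39a2, the zinc carrier ZIP2, shares exon bases with Mettl17. Its values ran from 0.894 to 7.21 at 1.5 mg/kg bw/d (median 2.86) and from 0.951 to 5.12 at 15 mg/kg bw/d (median 1.10). With an adjusted p under 0.05 alone there were 25 (18.5%, against 21.4%). Without mice 4 to 9 none of the 5 had an adjusted p under 0.05. Slc39a2 (0.58, adjusted p = 0.104) and Slc16a6 (0.51, adjusted p = 0.14) were about as large in fewer mice, Slc16a1 (0.37, adjusted p = 0.139) and Slc3a1 (-0.40, adjusted p = 0.285) were smaller, and Slc10a5 was near 0 (0.07, adjusted p = 0.889). Slc10a5 was at 0.49 (adjusted p = 0.0481) without the 4 libraries, under the limit for a DEG, and in the Wilcoxon test Slc10a5 (adjusted p = 0.216) and Slc16a6 (adjusted p = 0.111) lost their calls. The single DEG was again Slc38a2 (-0.66, adjusted p = 0.0153).

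Between 1.5 mg/kg bw/d and the high dose, 4 solute carriers were DEGs (2.96%, against 1.64% of all tested genes, 0.691% higher and 0.945% lower), and 8 had an adjusted p under 0.05 (5.93%, against 4.61%). Slc23a2 (-0.76, adjusted p = 0.0078) and Slc16a11 (-0.68, adjusted p = 0.02) were lower at 1.5 mg/kg bw/d, and Slc22a7 (0.70, adjusted p = 0.0413) and Slc13a3 (0.53, adjusted p = 0.0303) were higher. Slc22a7, the organic anion transporter OAT2, ran from 1.79 to 7.93 at 1.5 mg/kg bw/d (median 4.06) and from 1.03 to 4.18 at 150 mg/kg bw/d (median 2.06). Its adjusted p passed 0.05 in 13 of 27 fits with 1 mouse removed, and that of Slc13a3 in 8. The Wilcoxon adjusted p of Slc22a7 was 0.194. Without the 4 libraries, mouse 9 at 1.5 mg/kg bw/d among them, Slc13a3 was at 0.48 (adjusted p = 0.0614), and its Wilcoxon adjusted p was 0.194. Slc23a2 kept its value without them (-0.76, adjusted p = 0.0108) but had a Wilcoxon adjusted p of 0.0642. Slc16a11 was lower at 1.5 mg/kg bw/d in both (-0.67, adjusted p = 5.49e-05, and a Wilcoxon adjusted p of 0.0106). The contrasts of 150 mg/kg bw/d with control and with 1.5 mg/kg bw/d share the high-dose mice.

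Positions in GENCODE M21 were found by symbol for 132 of the 135 genes, and 10 of them share exon bases on the same strand with another gene, so that their values may include its reads. The organic anion carriers Slc22a27, Slc22a28, Slc22a29 and Slc22a30 are 90.7% to 98.9% identical over 1321 to 2088 aligned bases, and their separate values are uncertain.

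Carriers of the same kind outside the set were also counted. Of 18 tested solute carriers whose symbols have another form, Mpc1 and Mpc2 were higher at 15 mg/kg bw/d (log2FC 0.59 and 0.49). They are the mitochondrial pyruvate carrier genes. Ctns and Flvcr2 were lower at this dose (-0.39 and -0.53). The shares of all tested genes there were 7.57% higher and 6.61% lower. Values without the mice of the split in that group are not given for this list. Flvcr2 was also lower at 1.5 mg/kg bw/d (-0.74), and none of the 18 differed at the high dose. Of the 5 carriers left out by name, Slc22a5 (0.77) and Slc27a2 (0.56) were higher and Slc10a2 (-0.60) lower at 150 mg/kg bw/d. At 15 mg/kg bw/d 2 of the 5 were higher. Of 29 tested ABC transporters, Abcd3 (0.42) and Abcg2 (0.46) were higher at 150 mg/kg bw/d. At 15 mg/kg bw/d 2 of the 29 were higher and 2 lower. In the list of 20 PPARα target genes, 15 were higher in the high-dose group than in control, as were 170 of all 11431 tested genes. In the middle-dose group 3 of the 20 were higher. The list was chosen with earlier results of these data known, so that its count is no independent evidence.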

How the data were processed

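Liver RNA of 54 mice was sequenced by the authors as QuantSeq 3′ libraries and processed with STAR, RSEM and Salmon, per the labels, in the nf-core pipeline on GRCm38. The deposited table holds a signal: in each library 100.0% of the values were whole multiples of 1 step (0.764 to 1.11, within 0.01 of a step), and the whole numbers summed to 948342 to 980641, so that the values were read as TPM that the authors rounded and divided by size factors. They are not counts, the sequencing depth is unknown, and no counting error can be given. The table sums ran from 747258 to 1076439.

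Groups were taken from the labels. Each mouse is 1 sample, and p-values measure the spread between mice. Entries with a mean of at least 1 (11431 of 20162) were fitted by limma 3.58.1 under R 4.3.3 (eBayes, trend) on log2(value + 1), all 4 groups together, with Benjamini-Hochberg adjustment for each of 6 contrasts. Counts of library symbols, the split at 15 mg/kg bw/d and the 3 fits that leave those libraries out were chosen after the data were seen. Members and gene lists were chosen with earlier results of these data known. Genes named are DEGs of any contrast, up to 10 more per dose with an adjusted p under 0.05, the highest gene of each of 17 substrate classes, 7 genes the study names and the genes next to the mean of 1. The script was tested on simulated data. The replicate numbers do not pair mice (79 pairs, mean correlation -0.0025, from -0.359 to 0.243). Gene positions are from GENCODE M21, promoters from RefSeq, and transcript identity was computed with blastn 2.17.0. Alternatives were other pseudocounts (0.1, 5), other filters (none, a mean of 5), quantile normalization, scaling to equal sums, 2 groups alone, array weights, a robust fit, a replicate block, Wilcoxon tests, group medians, no log2FC limit and each mouse left out. The markers of stellate cells, endothelial cells, lymphocytes and red blood cells were also counted. At 15 mg/kg bw/d 1 of 9 endothelial genes was lower (all tested genes, 6.61%), and at 150 mg/kg bw/d none of these lists held a gene with an adjusted p under 0.05. A few genes that these rules name are not reported here.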

Additional observations from a re-analysis of the deposited data

How the results depend on the processing

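At 1.5 mg/kg bw/d against control the count of DEGs among the solute carriers was 0 in all alternatives. Against control at 15 mg/kg bw/d the count of 3 became 18 with no log2FC limit, 6 with a pseudocount of 0.1, 0 with a pseudocount of 5, and 1 each with the Wilcoxon test, with array weights, without the 4 libraries with more symbols, without mice 4 to 9, and without both sets. At 150 mg/kg bw/d the count of 3 became 6 with array weights, and 1 each with a minimum mean of 5 and a pseudocount of 5. Between 1.5 and 15 mg/kg bw/d the count of 5 became 25 with no log2FC limit, 9 and 0 with pseudocounts of 0.1 and 5, 3 with the Wilcoxon test, 2 with a minimum mean of 5, and 1 without mice 4 to 9 or both sets. Between 1.5 mg/kg bw/d and the high dose the count of 4 became 8 with no log2FC limit, 2 each with the Wilcoxon test, a minimum mean of 5 and no filter, and 1 with a pseudocount of 5. Between 15 and 150 mg/kg bw/d the count of 10 became 28 with no log2FC limit, 2 with a pseudocount of 5, and 6 without mice 4 to 9 or both sets. A higher minimum mean tests fewer members, and a higher pseudocount shrinks each log2FC. The cause of the other changes was not tested.

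With 1 mouse left out the counts ran from 0 to 0 at 1.5, from 1 (without mouse 4 at 15 mg/kg bw/d) to 5 (without its mouse 10) at 15, and from 2 (without control mouse 13) to 4 at 150 mg/kg bw/d against control. They ran from 4 to 8 between 1.5 and 15, from 2 to 5 between the lowest and the highest dose, and from 7 to 13 between 15 and 150 mg/kg bw/d. The replicate block, whose numbers share nothing but the number, gave 0, 3, 3, 5, 4 and 12 DEGs in the order of the contrasts above. The log2FC of Slc23a1 at 150 mg/kg bw/d against control (0.0429) was -0.00737 with array weights, -0.0471 with libraries scaled to equal sums, -0.0843 from group medians, and from -0.0105 (without mouse 12 of that dose) to 0.0852 with 1 mouse left out. Low values move in coarse steps, and with unknown depth their precision cannot be stated.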
